A study of Mus musculus with 9 samples.

Results

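The comparison described here is that of macrophages kept with an antibody against PD-L1 and macrophages kept without antibody, over every gene that could be measured. It rests on 6 of the 9 libraries of the series. All cells were mouse bone-marrow-derived macrophages from wild-type C57Bl/6 animals, cultured in bags for 1 week with 10 ng/ml macrophage colony-stimulating factor (M-CSF), washed free of it, and plated at 50000 per well for 48 h. PD-L1 antibody libraries 1 to 3 came from wells with 100 µg/ml of that antibody and untreated libraries 7 to 9 from wells with none, so that the antibody groups and the controls share both the M-CSF culture and its withdrawal. Isotype antibody libraries 4 to 6 had 100 µg/ml of a matched antibody without that target. They entered the estimate of the spread, and their values are set beside the comparison, because adding the PD-L1 antibody also adds antibody protein. Whether the 3 libraries of a group stem from separate mice or cultures is not in the labels. The p-values therefore reflect the spread among these samples alone, and it may be technical.

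Cd274 encodes PD-L1, a surface protein of macrophages and other cells that binds the inhibitory receptor PD-1 on T cells and also binds CD80. Antibodies against it are used to keep T cells active against tumours, and macrophages themselves carry much of the PD-L1 found in tumours. Macrophages grown in M-CSF are phagocytes that clear dying cells, handle lipid and iron, and present antigen. Inflammatory stimuli are known to shift them towards secretion of cytokines, an interferon response, glycolysis, and production of nitric oxide and prostaglandins.

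Levels are given as CPM, exonic reads per 1000000 of a library after scaling by TMM factors, and differences as log2 fold changes on the log2(CPM + 1) scale, on which changes of low genes come out too small. A gene was called when its adjusted p (limma, two-sided, Benjamini-Hochberg over 13741 genes) was under 0.05, and "rose" and "fell" are used of called genes only. Depth ran from 23554320 to 40116467 exonic read equivalents per library. The labelled cell type was visible in every library: Csf1r, the M-CSF receptor, stood at 3765, 2220 and 2734 CPM with the PD-L1 antibody and 2683, 2748 and 2655 CPM without (limma adjusted p = 0.757), and Lyz2, which encodes lysozyme, at 12339, 9884 and 11961 and 10064, 14142 and 14305 CPM (limma adjusted p = 0.58). Most macrophage markers did move: of 11 tested, 4 rose, 4 fell (5 without untreated 7) and 3 were not called, Csf1r and Lyz2 among these 3. Over all tested genes 22% rose and 20.5% fell. Of the marker lists of other cells, those of T and NK cells summed to at most 24 CPM in any PD-L1 antibody or untreated library and those of B and plasma cells to at most 19 CPM. Sums were higher for fibroblasts and stroma (at most 78.4 CPM), mast cells and basophils (at most 101 CPM) and endothelium (at most 219 CPM). Neutrophil, dendritic, erythroid and megakaryocyte markers are given below.

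Untreated 7 stood apart from untreated 8 and 9. On the second principal component (12.3% of the variance) it lay at -15.18, among the isotype antibody libraries (-18.17 to -3.22), while untreated 8 and 9 lay at 21.72 and 21.99. The first component (74.2%) placed the 3 PD-L1 antibody libraries between 45.54 and 48.62 and the other 6 between -30.46 and -19.47. Without untreated 7, 6766 of 13988 genes (48.4%) were called, against 5831 of 13741 (42.4%) with it. Among the called genes untreated 7 was the untreated library nearest to the PD-L1 antibody mean in 3360 (57.6%). Across genes, which are not replicates, its log2 values had a Pearson correlation of 0.9932 to 0.9947 with the isotype antibody libraries and of 0.9867 to 0.9868 with untreated 8 and 9, which had 0.9964 with each other. It is placed with the untreated wells by its label, and whether that label is right is in doubt and could not be tested, which bears on every value against untreated wells. Named genes whose fold moves by over 1.5 times without it are given with both values. PD-L1 antibody 2 was read on lane 4 and the other 8 libraries on lane 1, and without it 4760 of 14038 genes were called.

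**Figure D1:**
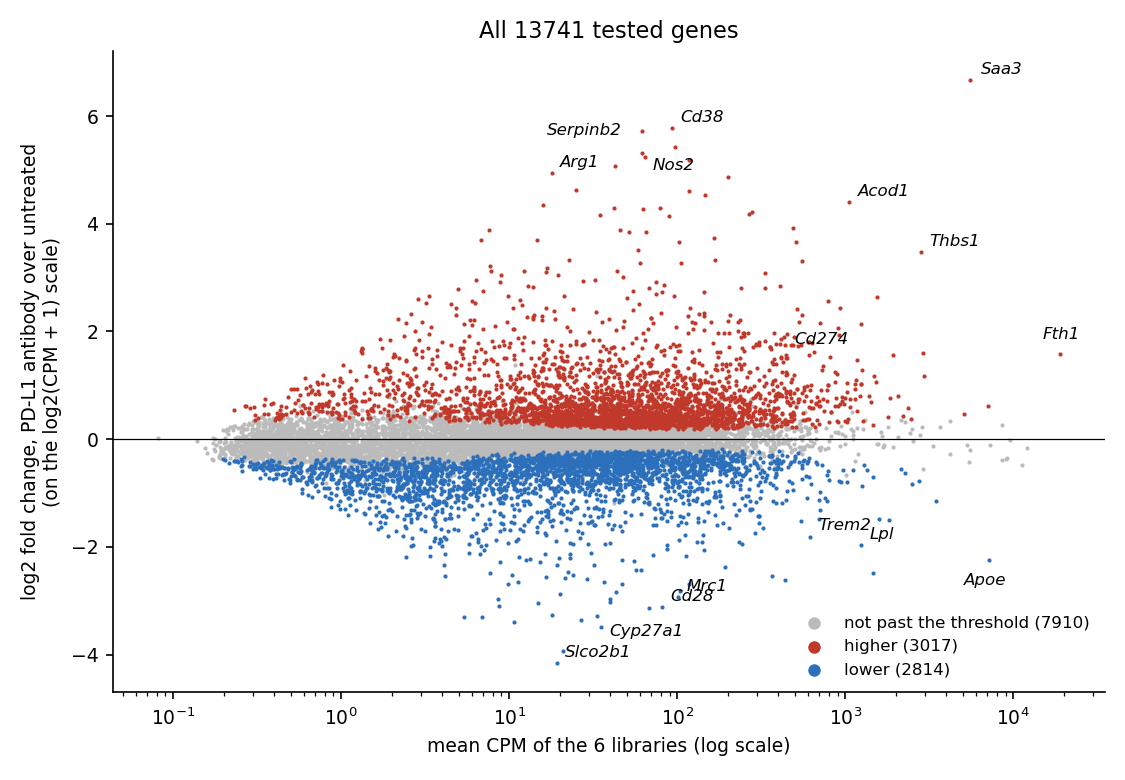
Each point is 1 of the 13741 tested genes, placed by its mean CPM over the 3 PD-L1 antibody and 3 untreated libraries (log axis) and by its log2 fold change; red and blue mark the 3017 genes called higher and the 2814 called lower. Rises reached beyond 6 on the log2 scale and falls beyond -4, and Saa3, Thbs1, Fth1 and Apoe combined a large change with a high level.

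Adding the PD-L1 antibody raised 3017 genes (22% of those tested) and lowered 2814 (20.5%). By size, 660 genes (4.8%) rose and 522 (3.8%) fell at least 2-fold, 146 and 65 at least 4-fold, 49 and 14 at least 8-fold, and 22 and 1 at least 16-fold. Which direction held more 2-fold changes depended on the processing, since there were 539 rises and 709 falls with library totals alone, 585 and 611 with upper-quartile factors, 790 and 865 with log2(CPM + 0.25), 695 and 730 by edgeR, 757 and 800 by DESeq2 and 848 and 940 by limma-voom. The 3 libraries of one group lay wholly above or below those of the other for 7035 genes (51.2%), of which 5589 were called. The balance of the directions depended on the scaling: with library totals alone, 1940 genes were higher and 4088 lower, and the median over all genes was -0.13 in place of -0.01 on the log2 scale. Every called gene named here kept its direction under that scaling. Well-measured genes were called more often, from 17.6% of genes under 1 CPM to 63.1% of those at or above 500 CPM. Longer transcripts ran higher: the median log2 fold change went from -0.09 in the lowest quartile of exonic length to 0.09 in the highest quartile, and the part of length in the results was not tested.

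Of the called genes, those that rose gained 217399 CPM in all and the others fell by 100429 CPM, as differences of group means. These sums cannot be set against each other, because values scaled by TMM factors do not add up to the same total in every library. The factors were 0.9192 to 0.9318 with the PD-L1 antibody and 1.009 to 1.063 in untreated wells, which makes the totals larger with the antibody. A few genes held much of each sum: the 10 largest gains made up 23.2% and the 10 largest losses 24.1% of their totals. The largest gain was that of Fth1, the heavy chain of the iron store ferritin, at 30390, 27898 and 26775 CPM with the antibody and 8834, 9184 and 10215 CPM without (log2 fold change 1.59, SE 0.18, limma adjusted p = 4.81e-05). The groups lay far apart, and 2.46 to 2.83% of a library's reads fell on this 1 gene, against 0.933 to 1.03% in untreated wells. Saa3, an acute-phase apolipoprotein, came next, with 0.95 to 1.1% of reads against 0.00774 to 0.019%. The other 8 of the 10 were Thbs1 (thrombospondin 1), Actb (β-actin), Pkm (pyruvate kinase), Adgre1 (the macrophage antigen F4/80), Tgfbi (a matrix protein), Acod1 (the enzyme that makes itaconate), Tnfrsf1b (the second TNF receptor) and H2-K1 (an MHC class I chain); the call of H2-K1 was lost with library totals alone (limma adjusted p = 0.0896) and without any 1 of the PD-L1 antibody libraries or untreated 8. The largest losses were those of Apoe, of Rn45s, the ribosomal RNA precursor that oligo(dT) selection should leave behind, of Selenop (log2 fold change -2.48, and -3.11 without untreated 7), C1qb, C1qc, Lpl, Lgals3, Cd74, Laptm5 and Eef2.

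The largest rises among genes averaging at least 5 CPM over the 6 libraries were Saa3, Cd38, Serpinb2, Fpr1, Cxcl3, Nos2, Ptges, Il1a, Arg1, Slfn4, Tarm1 and Slc7a2. Most encode secreted proteins, surface receptors or enzymes. Coordinates are given as deposited and are those of GRCm38 gene models. Saa3 (chromosome 7, 46711998 to 46715676, minus strand) stood at 10815, 10192 and 11974 CPM with the antibody and 72.8, 88.6 and 188 CPM without (log2 fold change 6.67, SE 0.45, limma adjusted p = 1.2e-06). The lowest antibody library was far above the highest untreated one. Cd38 (chromosome 5, 43868809 to 43912374, plus strand), an NAD-consuming surface enzyme, stood at 168, 171 and 214 CPM and 2.08, 2.46 and 2.57 CPM (log2 fold change 5.77, SE 0.19, limma adjusted p = 7.02e-09). Serpinb2 (chromosome 1, 107511510 to 107525600, plus strand), an inhibitor of plasminogen activators, stood at 100.0, 104 and 164 CPM and 1.19, 1.57 and 1.14 CPM (log2 fold change 5.72, SE 0.20, limma adjusted p = 1.38e-08). Both transcripts were near the lower end of what was measured in untreated wells, and the groups did not overlap.

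Arg1 (arginase 1), Ak4 (a mitochondrial adenylate kinase), Sprr2d (an epithelial envelope protein), U90926 and Gm14023 went from under 1 CPM in every untreated library to over 10 CPM in every antibody library. Arg1 stood at 30.1, 47.1 and 29.7 CPM with the antibody and 0.0885, 0.228 and 0.179 CPM without. Gm14023 overlaps exons of Il1a, so reads of the pair cannot be told apart without strand, which the sources used here do not give. Shisa9 went the other way, from 12.9, 13.4 and 13.6 CPM without antibody to 0.597, 0.624 and 0.165 CPM with it.

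The largest falls were those of Slco2b1, Gprc5c, Cyp27a1, Mamdc2, Pcp4l1, Shisa9, Hpgd, Cdkn1c, Ephx1, Slc40a1, Cd28 and Angptl4. Slco2b1 (chromosome 7, 99657804 to 99706842, minus strand), an organic anion transporter, stood at 1.01, 1.33 and 0.849 CPM with the antibody and 23.4, 51.7 and 37.2 CPM without (log2 fold change -4.16, SE 0.29, limma adjusted p = 1.45e-06). Untreated 7 was the lowest of the untreated libraries and still far above every antibody library. Cd28, a co-stimulatory receptor best known from T cells, stood at 16.7, 14.5 and 16.6 CPM with the antibody and 121, 163 and 156 CPM without (log2 fold change -3.12, SE 0.12, limma adjusted p = 2.21e-08). Markers of T and NK cells were lower too: they summed to 4.3, 6.23 and 3.25 CPM with the antibody and 12.6, 23.6 and 20.8 CPM without. Of 6 tested ones 3 fell, or 1 without untreated 8, and none rose, and Cd3e, which marks T cells, fell by 0.53 from under 1 CPM. Their part in the fall of Cd28 was not tested. Cdkn1c, which encodes the cell cycle inhibitor p57, fell by 3.28 on the log2 scale, with 30.7% of its exonic bases shared with another annotated gene. Angptl4, an inhibitor of lipoprotein lipase, fell by 3.10, and Ephx1, an epoxide hydrolase, by 3.27.

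**Figure D2:**
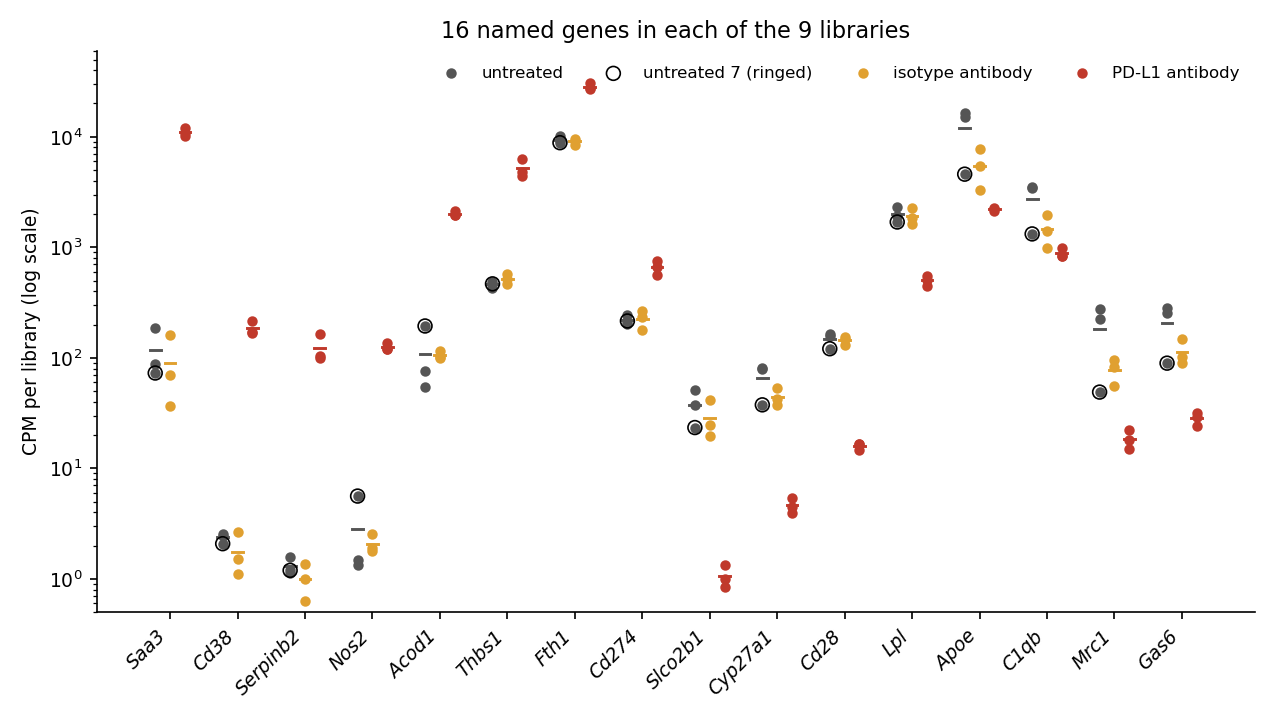
Points are the CPM (log axis) of 16 named genes in each of the 9 libraries, grouped by treatment, with a short line at each group's mean and a ring around untreated 7. The red points of the PD-L1 antibody lie apart from the other 6 libraries for each gene from Saa3 to Lpl, while untreated 7 lies below untreated 8 and 9 for Apoe, C1qb, Mrc1 and Gas6.

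Promoter sequences were at hand for 9968 of the tested genes and for 14 of the 24 largest rises and falls (RefSeq, GRCm38.p6, 250 bases before to 50 after the annotated start). Those of 3 large rises with different motifs, and of the largest fall, are shown here 5′ to 3′ on the gene's strand, in lower case with motif matches in capitals. The Saa3 window (chr7:46715627-46715926, minus strand) holds an interferon-stimulated response element, starting 125 bases before the start, and a C/EBP site, TTGCNNAA, starting 99 bases before it. The Cxcl3 window (chr5:90785851-90786150, plus strand) holds a match to the NF-kB consensus starting 73 bases before the start. In the Serpinb2 window (chr1:107511260-107511559, plus strand) an AP-1 site, TGANTCA, starts 181 bases before the start, a STAT site, TTCNNNGAA, 77 bases and a C/EBP site 19 bases before it. The Slco2b1 window (chr7:99706793-99707092, minus strand) holds only a STAT site, past the start. Windows shown were picked for their matches, except that of Slco2b1. Of the other largest rises with a promoter at hand, Il1a and Slfn4 had an AP-1 site, and Cd38, Fpr1, Ptges and Tarm1 had no match to these motifs. Of the largest falls, Cyp27a1, Pcp4l1, Hpgd and Ephx1 had none either. C1qc, among the largest losses in CPM, had an NF-kB match.
Saa3: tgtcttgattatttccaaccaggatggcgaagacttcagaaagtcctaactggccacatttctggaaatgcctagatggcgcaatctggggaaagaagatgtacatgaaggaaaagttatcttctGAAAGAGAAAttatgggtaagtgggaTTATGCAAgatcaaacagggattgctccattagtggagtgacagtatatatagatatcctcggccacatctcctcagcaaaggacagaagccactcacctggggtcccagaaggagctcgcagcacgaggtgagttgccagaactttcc
Cxcl3: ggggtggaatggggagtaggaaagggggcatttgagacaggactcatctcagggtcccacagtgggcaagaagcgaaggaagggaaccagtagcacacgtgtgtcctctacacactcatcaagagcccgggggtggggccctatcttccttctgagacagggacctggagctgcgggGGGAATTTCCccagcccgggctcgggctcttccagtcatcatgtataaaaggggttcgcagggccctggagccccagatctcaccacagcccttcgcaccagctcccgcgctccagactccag
Serpinb2: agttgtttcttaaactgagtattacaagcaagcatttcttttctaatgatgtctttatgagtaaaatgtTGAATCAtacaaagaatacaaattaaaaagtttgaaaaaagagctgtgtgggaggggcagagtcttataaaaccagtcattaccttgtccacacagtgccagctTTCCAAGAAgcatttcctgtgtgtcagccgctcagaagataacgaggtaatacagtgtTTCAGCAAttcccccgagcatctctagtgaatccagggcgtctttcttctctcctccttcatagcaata
Slco2b1: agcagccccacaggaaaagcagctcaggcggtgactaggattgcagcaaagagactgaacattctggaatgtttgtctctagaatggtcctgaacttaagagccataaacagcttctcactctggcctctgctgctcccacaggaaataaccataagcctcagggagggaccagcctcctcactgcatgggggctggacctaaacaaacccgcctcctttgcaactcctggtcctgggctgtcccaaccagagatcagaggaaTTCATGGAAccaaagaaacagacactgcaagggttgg

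The same motifs, searched on both strands and free to overlap, were counted over all 9968 promoters and over those of genes that moved at least 2-fold. The interferon-stimulated response element was in 3.37% of all promoters, 11.1% of those of 469 risen genes and 3.28% of those of 366 fallen genes. A STAT site was in 6.98% of all, 11.3% of risen and 4.1% of fallen. An AP-1 site was in 5.03%, 10% and 5.74%, and a C/EBP site in 8.35%, 12.8% and 10.7%. NF-kB matches were in 7.04% of all, 10% of risen and 9.84% of fallen genes. An E2F site, TTCCCGC, known from cell cycle promoters, was in 8.5% of all, 5.12% of risen and 5.46% of fallen genes. Among the promoters of 109 genes that rose at least 4-fold and of 42 that fell as much, a C/EBP site was in 22.9% and 4.76%, an AP-1 site in 17.4% and 4.76%, an NF-kB match in 12.8% and 0%, the interferon-stimulated response element in 11.9% and 0%, a STAT site in 12.8% and 9.52%, and an E2F site in 4.59% and 2.38%. These shares are descriptions of short windows; a match is not a bound site.

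Members and lists below are described by counts and medians beside those of all tested genes (22% higher, 20.5% lower, median -0.01). They were chosen with earlier results of these data known, so a share above that of all genes is partly a product of the choice. Among the secreted signals, 15 of 21 inflammatory cytokine genes rose and 2 fell (median log2 fold change 1.10). Il1b, interleukin-1β, stood at 524, 421 and 637 CPM with the antibody and 28.1, 26.2 and 26.8 CPM without (log2 fold change 4.22, SE 0.19, limma adjusted p = 5.84e-08), and Il1rn, the antagonist of the same receptor, at 861, 1131 and 748 and 70.4, 48.5 and 58.2 CPM (log2 fold change 3.92, SE 0.18, limma adjusted p = 6.68e-08). Agonist and antagonist transcripts thus rose together, in all 3 libraries each. Il6 was low and went from 0.485 ± 0.225 to 9.46 ± 3.08 CPM (SD, n = 3; log2 fold change 2.79), and Tnf from 19 ± 4.12 to 65.4 ± 19.7 CPM (1.71). Ifnb1, interferon-β, reached 2.08, 2.87 and 2.76 CPM, against 0.154, 0.135 and 0 CPM in untreated wells (log2 fold change 1.70, SE 0.14, limma adjusted p = 3.85e-06). The falls were those of Il16 (-0.59) and Tgfb1 (-0.53). With only genes averaging 5 CPM tested, which left out members and also recomputed the scaling, 9 cytokine genes rose.

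Of chemokine genes 17 of 25 rose and 1 fell, or 2 without PD-L1 antibody 2 or untreated 9 (median 1.05). Ccl2, which draws monocytes through CCR2, stood at 131, 176 and 200.4 CPM with the antibody and 5.99, 12.5 and 8.06 CPM without (log2 fold change 4.14, SE 0.24, limma adjusted p = 3.47e-07). Its neighbour Ccl7 rose by 4.30 on the log2 scale and Cxcl3, a neutrophil attractant, by 5.31. The ligands of the T cell receptor CXCR3 rose too, Cxcl10 by 3.33 and Cxcl11 by 3.12; exons of Cxcl11 overlap another gene over 41.7% of their bases. Ccl6 fell by 1.20. Of the receptors for such signals 8 of 17 rose and 3 fell. The formyl peptide receptor genes Fpr1 and Fpr2 rose by 5.42 and 4.30 and Ccr1 by 2.30, while Ccr2, the receptor of CCL2, fell from 186 ± 22.9 to 95.4 ± 15.5 CPM and Cxcr4 from 409.8 ± 84.9 to 182 ± 33.1 CPM. So within 1 pair the ligand Ccl2 was higher and the receptor Ccr2 lower in the same wells.

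Of acute-phase and antimicrobial genes 8 of 18 rose and 3 fell. Hp, haptoglobin, which binds free haemoglobin, stood at 147, 132 and 146 CPM with the antibody and 21.9, 20.7 and 18.6 CPM without (log2 fold change 2.74, SE 0.11, limma adjusted p = 3.22e-08). Cfb, complement factor B, rose by 3.66, though 79.5% of its exonic bases are shared with a read-through gene. The 3 falls, Ltf, Camp and Chil1, are products of granulocyte granules or of neutrophil precursors. Markers of neutrophils and their precursors numbered 13, of which 7 fell and 3 rose, and their summed level was 576 to 744 CPM with the antibody and 690 to 863 CPM without, so the groups overlapped. In bulk samples fewer cells of a type and less RNA per cell cannot be told apart.

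Sensors of microbes rose in 18 of 27 cases and fell in 3 (median 0.84). Clec4e, the receptor Mincle for mycobacterial glycolipid, stood at 569, 566 and 609 CPM with the antibody and 123, 60.7 and 73 CPM without (log2 fold change 2.81, SE 0.20, limma adjusted p = 1.69e-06). Cd14, the lipopolysaccharide co-receptor, rose by 1.47, Tlr2 by 1.43 and Nlrp3, an inflammasome sensor, by 1.46. Tlr4 did not pass the test, at 191 ± 12.8 and 189.6 ± 13.9 CPM (limma adjusted p = 0.946). Clec7a, the β-glucan receptor Dectin-1, fell by 1.90, from 371 ± 19.5 to 98.8 ± 13.1 CPM.

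NF-kB subunits and inhibitors rose in 16 of 22 cases and fell in none (median 0.60). The members named by the rule were mostly its brakes: Nfkbia, the inhibitor IκBα, stood at 229.8, 245 and 329.6 CPM with the antibody and 108, 97 and 94.8 CPM without (log2 fold change 1.4, SE 0.12, limma adjusted p = 6.26e-06), and Tnfaip3, the deubiquitinase A20, at 132, 147 and 155 and 56.7, 36 and 36.2 CPM (log2 fold change 1.76, SE 0.16, limma adjusted p = 8.3e-06). Among STAT and IRF factors and their feedback 12 of 22 rose and 2 fell (9 and 4 with library totals alone). Socs3, a feedback inhibitor of cytokine receptors, stood at 443, 420.4 and 654 CPM with the antibody and 23.3, 28.9 and 26.6 CPM without (log2 fold change 4.19, SE 0.15, limma adjusted p = 1.69e-08), the largest change of that list by far. Stat2, which carries interferon signals, rose by 1.25, and Irf8, a factor of monocyte and dendritic cell development, fell by 0.54. Of AP-1 and EGR factors 10 of 22 rose and 6 fell. Batf and Fosl2 rose by 1.74 and 1.36, while Egr2 fell by 1.58 and Jund by 0.95, with 52.6% of the exonic bases of Jund shared with another annotated gene.

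Fosb was the 1 gene that also differed between the isotype antibody and untreated wells. It stood at 21.5, 15.2 and 31.6 CPM with the PD-L1 antibody and 3.51, 1.28 and 0.746 CPM without antibody, and isotype antibody wells had 17.7, 21.8 and 22.7 CPM. Both antibody groups lay above every untreated library, and the PD-L1 antibody exceeded the isotype antibody by 0.07 only on the log2 scale. That comparison of isotype antibody with untreated wells called 1 gene (0.00728%) and 2295 (16.4%) without untreated 7, so the count of genes that differed between the isotype antibody and untreated wells turned on 1 library.

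The interferon-induced antiviral genes were among the most evenly moved: 33 of 35 rose and none fell (median 0.92). Rsad2, which encodes the antiviral enzyme viperin, stood at 1796, 2725 and 1567 CPM with the antibody and 479, 372 and 498 CPM without (log2 fold change 2.14, SE 0.24, limma adjusted p = 4.06e-05). Isg15, a ubiquitin-like modifier, stood at 628, 704 and 609.6 and 231, 142 and 172 CPM (log2 fold change 1.86, SE 0.19, limma adjusted p = 1.93e-05), and Usp18, which removes it, rose by 2.01. The groups did not overlap, and these genes were well expressed in untreated wells too, so the rises were moderate beside those of the leading genes. Of the guanylate-binding proteins and immunity GTPases, which attack the vacuoles of intracellular microbes, 17 of 18 rose (median 1.46). Gbp5 rose from 46.9 ± 9.48 to 240.4 ± 27.2 CPM and Tgtp2 from 133 ± 10.8 to 456 ± 95.5 CPM. Members of these families are close copies of each other, so the split of reads among them is uncertain.

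Both arms of antigen presentation moved, in opposite directions. Of MHC class I and immunoproteasome genes, which show peptides from inside the cell, 16 of 20 rose and none fell (median 0.52). H2-T22 stood at 683, 692 and 614 CPM with the antibody and 248, 209 and 243 CPM without (log2 fold change 1.5, SE 0.12, limma adjusted p = 3.87e-06). Of MHC class II genes, which show peptides from the endosome, none rose and 10 of 12 fell (median -0.84). H2-Eb1 stood at 397, 405 and 402 CPM with the antibody and 1094, 936 and 995 CPM without (log2 fold change -1.32, SE 0.12, limma adjusted p = 1.17e-05), and Ciita, the master activator of the class, fell by 1.09. The class II falls held with library totals alone (11 of 12) and without untreated 7 (10 of 12). Dendritic cell markers, which share class II with macrophages, summed to 981 to 1121 CPM with the antibody and, in untreated 7, 8 and 9, to 1133, 679 and 648 CPM, so that the groups overlapped through untreated 7 alone. Of 13 such markers 8 fell and 2 rose, with 5 rises without untreated 7 and 1 without PD-L1 antibody 1, PD-L1 antibody 2 or untreated 9, and their part in the class II fall was not tested.

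The target transcript rose. Cd274 (chromosome 19, 29367438 to 29388094, plus strand) stood at 668, 752 and 567 CPM with the PD-L1 antibody and 215, 202 and 246 CPM without (log2 fold change 1.57, SE 0.15, limma adjusted p = 1.4e-05). In isotype antibody wells it stood at 266, 178 and 235 CPM. All 3 PD-L1 antibody libraries were more than 2-fold above every other library. Cd80, whose product binds PD-L1 too, went up from 7.14 ± 0.938 to 14.6 ± 3.16 CPM (log2 fold change 0.93, SE 0.15, limma adjusted p = 0.000583), and Cd86, the other ligand of CD28, from 25.6 ± 4.23 to 49.3 ± 4.05 CPM (0.93). Pdcd1lg2, the second ligand of PD-1, was at 1.3, 2.42 and 1.2 CPM with the antibody and 0.557, 0.457 and 0.803 CPM without (log2 fold change 0.69, SE 0.19, limma adjusted p = 0.013). Pdcd1, PD-1 itself, was under 1 CPM in all 6 libraries. Of 21 tested genes of the CD28 and checkpoint list 11 rose and 3 fell. Pvr, a ligand of TIGIT, rose by 1.28, Vsir, the checkpoint protein VISTA, fell by 0.67, and Lgals3, galectin-3, by 0.77.

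**Figure D3:**
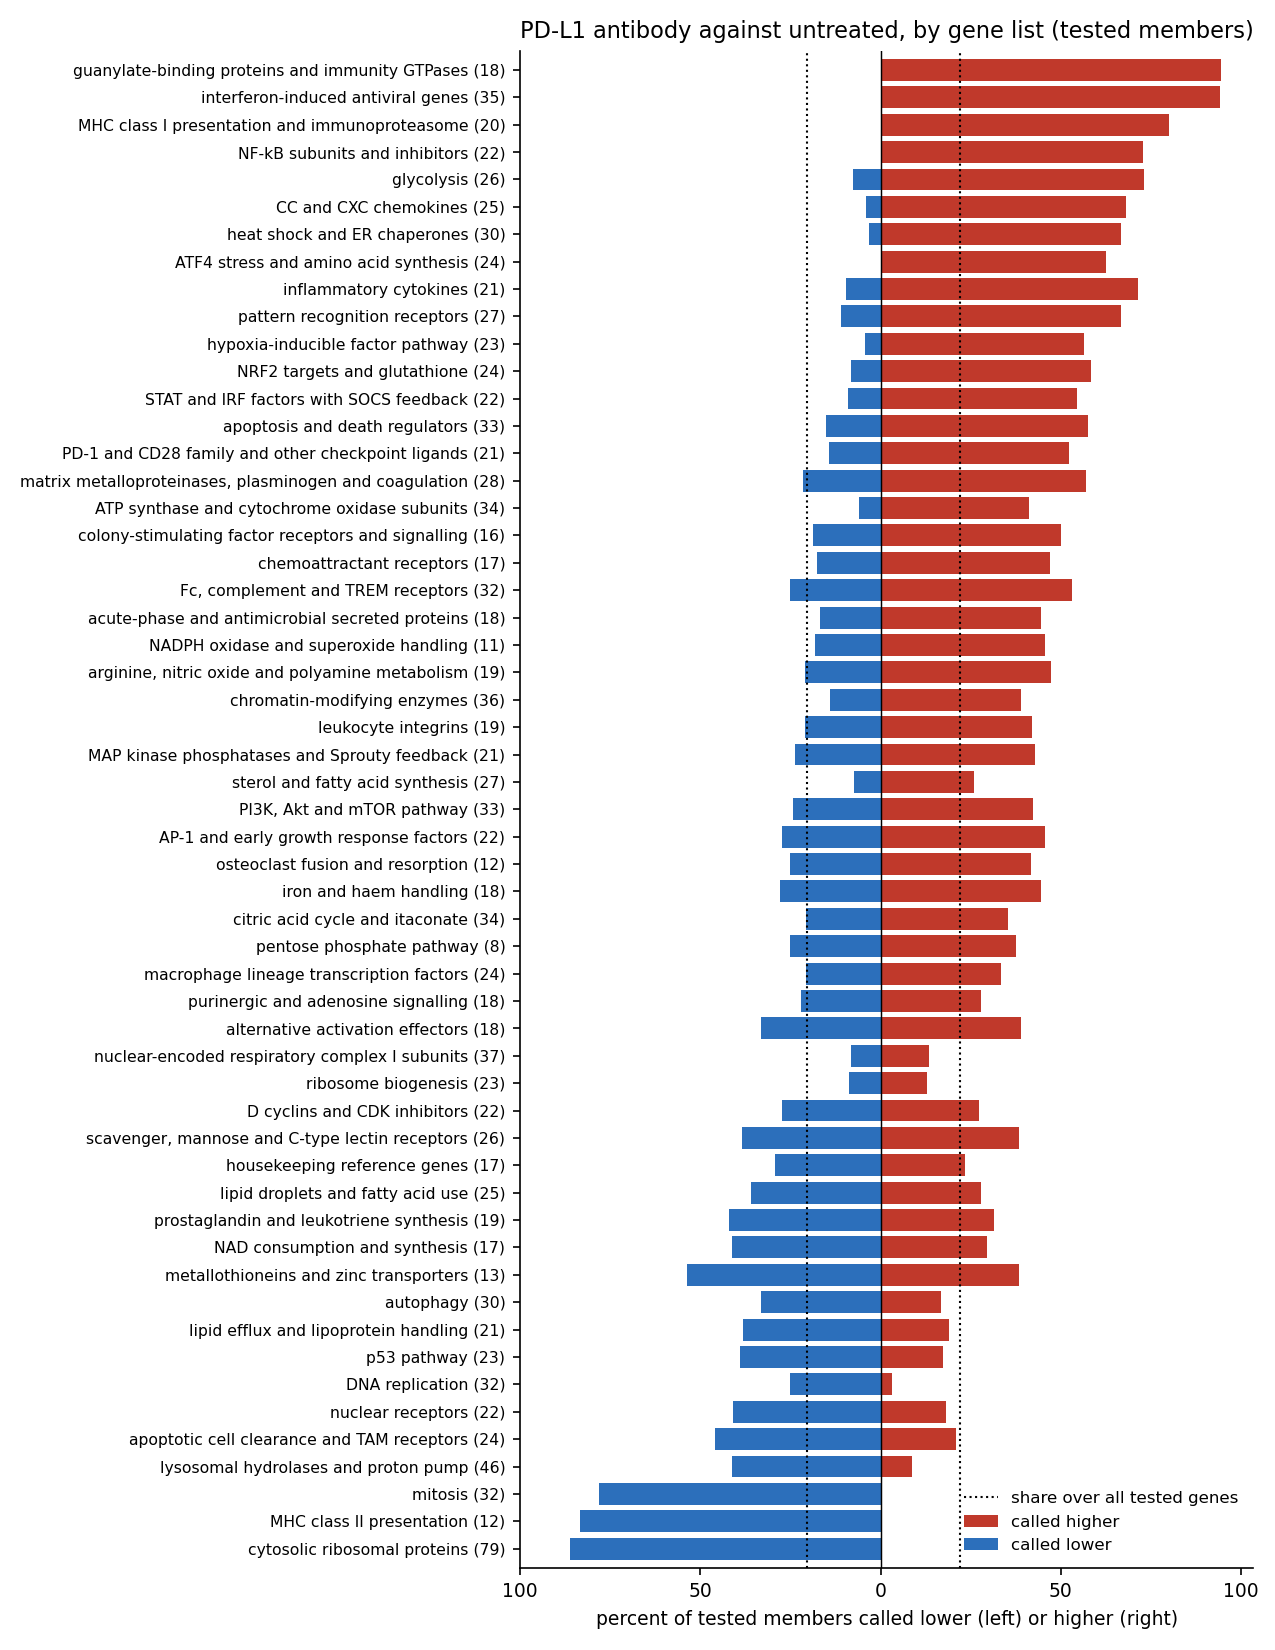
Bars give, for each of 55 gene lists, the percent of tested members called higher (red, right) and lower (blue, left), with the number tested in brackets; dotted lines mark the 22% and 20.5% of all tested genes. Immunity GTPases and interferon-induced genes stand at the top, with 94.4% and 94.3% higher, and cytosolic ribosomal proteins at the bottom with 86.1% lower. The lists were chosen with earlier results of these data known.

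Arginine is used by nitric oxide synthase, by arginase and, through ornithine, for polyamines. Nos2, inducible nitric oxide synthase, stood at 119, 136 and 121 CPM with the antibody and 5.61, 1.47 and 1.32 CPM without (log2 fold change 5.23, SE 0.32, limma adjusted p = 5.81e-07); untreated 7 was the highest untreated library, and without it the log2 fold change was 5.71. Arg1 rose by 4.94, although the 2 enzymes are usually held to mark opposite states of macrophages. Slc7a2, which brings arginine into the cell, stood at 206, 219.7 and 248 CPM with the antibody and 19.6, 4.48 and 6.08 CPM without (log2 fold change 4.60, SE 0.37, limma adjusted p = 3.85e-06), and Ass1, which regenerates arginine, rose by 2.25. Enzymes of polyamine breakdown and synthesis fell, Sat1 by 1.06 and Sms by 0.50, and Odc1, the entry to polyamines, did not pass the test (40.7 ± 3.89 and 38.6 ± 1.01 CPM, limma adjusted p = 0.573). In the whole list 9 of 19 rose and 4 fell, or 2 without any 1 of the PD-L1 antibody libraries, isotype antibody 4, untreated 8 or untreated 9.

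Of 19 genes of prostaglandin and leukotriene synthesis 6 rose and 8 fell, or 5 without PD-L1 antibody 1, PD-L1 antibody 2 or untreated 9. Pla2g4a, the phospholipase that frees arachidonic acid, rose by 2.0. Ptgs2, cyclooxygenase 2, stood at 67.4, 83.3 and 106 CPM with the antibody and 8.38, 4.15 and 2.93 CPM without (log2 fold change 3.89, SE 0.27, limma adjusted p = 1.47e-06), and Ptges, the last enzyme of prostaglandin E synthesis, at 198, 204 and 288 and 7.3, 3.81 and 5.12 CPM (log2 fold change 5.19, SE 0.21, limma adjusted p = 2.85e-08). Neither had overlapping groups. Hpgd, which inactivates prostaglandins, stood at 0.139, 0 and 0.163 CPM with the antibody and 5.24, 13.3 and 13.3 CPM without (log2 fold change -3.30, SE 0.28, limma adjusted p = 6.74e-06). Cyclooxygenase 1 (Ptgs1) fell by 1.27, the prostaglandin D synthase Hpgds by 1.35 and the receptor Ptger3 by 1.71.

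Most glycolytic genes rose: 19 of 26 genes rose and 2 fell (median 1.08), and the list's share of reads was 1.23 to 1.35% with the antibody and 0.479 to 0.607% without. Slc2a1, the glucose transporter GLUT1, stood at 202, 191 and 216 CPM with the antibody and 38.2, 36.8 and 34.6 CPM without (log2 fold change 2.44, SE 0.08, limma adjusted p = 7.02e-09). Slc16a3, which exports lactate, stood at 413, 381 and 461 and 67.8, 56.3 and 53.5 CPM (log2 fold change 2.80, SE 0.10, limma adjusted p = 1.69e-08). The groups lay apart, in either direction, for 22 of the 26 genes, as for 51.2% of all tested genes. Pfkl, phosphofructokinase, was higher by 2.29, Pgk1 by 1.98 and Ldha, lactate dehydrogenase, by 1.53. The falls, which numbered 4 with library totals alone, upper-quartile factors or a filter at 5 CPM, were those of Slc2a3, another glucose transporter (-0.54), and Pfkfb4 (-0.48). Pgk1 and Gapdh are often used as reference genes, and here rose by 1.98 and 1.77; Hprt and Gusb, also used so, fell by 0.67 and 0.78. Both glycolytic genes have pseudogene copies that can take up reads.

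Mitochondrial genes went both ways. Of citric acid cycle genes 12 of 34 rose (7 with library totals alone) and 7 fell. Acod1, which diverts the cycle to itaconate, stood at 1939, 1944 and 2116 CPM with the antibody and 194, 54.6 and 76.6 CPM without (log2 fold change 4.40, SE 0.34, limma adjusted p = 2.88e-06). Untreated 7 was again the highest untreated library, and without it the value was 4.93. Of nuclear-encoded subunits of complex I 5 of 37 rose and 3 fell with TMM, but 0 rose and 11 fell with library totals alone and 10 rose and none fell against the isotype antibody, with medians of 0.05, -0.10 and 0.10, so no direction can be given. ATP synthase and cytochrome oxidase subunits rose in 14 of 34 cases and fell in 2, in 6 and 5 with library totals alone, in 8 and 1 without PD-L1 antibody 1 and in 9 and 1 without untreated 8. Cytochrome c (Cycs) rose by 1.11 and kept that call throughout.

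Genes of the hypoxia-inducible factor pathway rose in 13 of 23 cases and fell in 1 (2 without untreated 7), with a median of 0.46. Hif1a stood at 370.2, 391 and 404 CPM with the antibody and 71.8, 85.2 and 91.9 CPM without (log2 fold change 2.22, SE 0.09, limma adjusted p = 3.22e-08). Egln3, a prolyl hydroxylase that marks HIF for breakdown, rose by 2.44 and Bnip3, a mitophagy receptor, by 1.84. Of NRF2 targets and glutathione genes 14 of 24 rose and 2 fell, with 4 falls without untreated 7 and 1 without untreated 8, untreated 9, PD-L1 antibody 2 or PD-L1 antibody 3. Hmox1, haem oxygenase 1, stood at 1118, 1338 and 1003 CPM with the antibody and 258, 251 and 258 CPM without (log2 fold change 2.16, SE 0.10, limma adjusted p = 6.68e-08). Slc7a11, the cystine importer, stood at 109.6, 106 and 138 and 30.8, 10.6 and 12.1 CPM (log2 fold change 2.80, SE 0.30, limma adjusted p = 3.05e-05). Superoxide dismutases split by compartment. The mitochondrial Sod2 stood at 977, 955 and 1090 CPM with the antibody and 115, 89.3 and 100.2 CPM without (log2 fold change 3.30, SE 0.10, limma adjusted p = 7.02e-09), while the cytosolic Sod1 fell by 0.74 and catalase (Cat) by 0.52. Cybb, the catalytic subunit of the phagocyte NADPH oxidase, rose by 0.81.

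Iron storage and iron export changed in opposite directions. Beside the rise of Fth1, Slc40a1, ferroportin, the only known exporter of iron from cells, stood at 15.2, 13.2 and 9.05 CPM with the antibody and 65.3, 154 and 150.2 CPM without (log2 fold change -3.13, SE 0.29, limma adjusted p = 1.2e-05). Every antibody library lay below untreated 7, the lowest untreated one. Ncoa4, which carries ferritin to the lysosome for breakdown, fell by 1.15, and Cp, ceruloplasmin, rose by 2.36. In all 8 of 18 iron and haem genes rose and 5 fell. Of 13 tested genes of metallothioneins and zinc transporters 5 rose (2 with library totals alone) and 7 fell. Zinc importers went both ways, Slc39a14 rising by 2.24 and Slc39a10 falling by 0.74, and the exporter Slc30a1 fell by 0.80. Cd38 and its relative Bst1, both of which consume NAD, rose by 5.77 and 3.67, while Kmo and Kynu of NAD synthesis from tryptophan fell by 1.07 and 0.82.

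Genes of lipid efflux and lipoprotein handling rose in 4 of 21 cases and fell in 8 (median -0.17). Lpl, lipoprotein lipase, stood at 506, 555 and 447 CPM with the antibody and 1693, 2338 and 1915 CPM without (log2 fold change -1.97, SE 0.15, limma adjusted p = 3.48e-06), with no overlap. Apoe, the apolipoprotein of lipid export, stood at 2227, 2255 and 2136 CPM with the antibody and at 4586, 16501 and 15152 CPM without (log2 fold change -2.25, SE 0.44, limma adjusted p = 0.00184). The antibody libraries agreed closely, but untreated 7 lay far from untreated 8 and 9; without it the log2 fold change was -2.84, and against the isotype antibody -1.23. Cyp27a1, a sterol hydroxylase, fell by 3.49. Msr1, the uptake receptor scavenger receptor A, stood at 874, 942 and 958 CPM with the antibody and 193, 169 and 199 CPM without (log2 fold change 2.30, SE 0.10, limma adjusted p = 5.91e-08), and Abca1, the cholesterol exporter, rose by 0.94. Acsl1, which activates fatty acids, rose by 3.09, whereas Fabp4, a fatty acid carrier, and Mgll, which breaks down monoglycerides, fell by 1.48 and 1.91.

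Several nuclear receptors govern lipid genes, and of this list 4 of 22 rose and 9 fell. Pparg, the receptor that drives Fabp4 and lipid storage, stood at 10.1, 13 and 7.42 CPM with the antibody and 55.6, 55.6 and 50.8 CPM without (log2 fold change -2.33, SE 0.15, limma adjusted p = 9.36e-07). Nr1h3, the sterol sensor LXRα, rose by 1.17, and Vdr, the vitamin D receptor, by 1.84 from about 1 CPM or less. Lysosomal hydrolases and proton pump subunits rose in 4 of 46 cases and fell in 19 (29 with library totals alone). Atp6v0d2 fell by 2.05 and Atp6v0a1 by 1.32, both subunits of the pump, while the proteases Ctsc and Ctsz rose by 1.29 and 0.57. Of 30 autophagy genes 5 rose (3 without PD-L1 antibody 3) and 10 fell, among them the receptor Calcoco1 (-0.83). With library totals alone 2 rose and 13 fell. The receptor Sqstm1 (p62) rose by 0.66.

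Genes for the clearance of dying cells fell more often than they rose. Of 24 tested genes 11 fell and 5 rose (median -0.44). The rises came down to 3 with library totals alone. They also came down to 3 without any 1 of the PD-L1 antibody libraries, isotype antibody 4, untreated 8 or untreated 9. Gas6, which bridges dying cells to receptor kinases of the TAM family, stood at 29.2, 31.4 and 24.1 CPM with the antibody and 89.4, 282 and 254 CPM without (log2 fold change -2.68, SE 0.35, limma adjusted p = 0.000141), and Pros1, the other bridge, at 19.4, 19.2 and 17.3 and 41.6, 76.7 and 72.6 CPM (log2 fold change -1.67, SE 0.19, limma adjusted p = 4.64e-05). For both, untreated 7 lay between untreated 8 and 9 and the antibody libraries, and without it the values were -3.21 and -1.95. C1qb and C1qc, chains of the opsonin C1q, fell by 1.5 and 1.48 with untreated 7 and by 1.97 and 1.94 without it; C1qa fell by 1.51 with and by 2.25 without untreated 7, a call that no longer held without any 1 of the PD-L1 antibody libraries, isotype antibody 5, untreated 8 or untreated 9. Trem2, a lipid receptor of phagocytes, stood at 296, 273 and 249 CPM with the antibody and 886, 1009 and 989 CPM without (log2 fold change -1.81, SE 0.09, limma adjusted p = 1.79e-07), a fall that did not turn on untreated 7 (-1.87 without it). Mrc1, the mannose receptor, stood at 15, 22.4 and 18 and 49, 277 and 226 CPM (log2 fold change -2.93, SE 0.50, limma adjusted p = 0.000841; -3.71 without untreated 7), and Clec10a, another lectin, fell by 2.69.

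**Figure D4:**
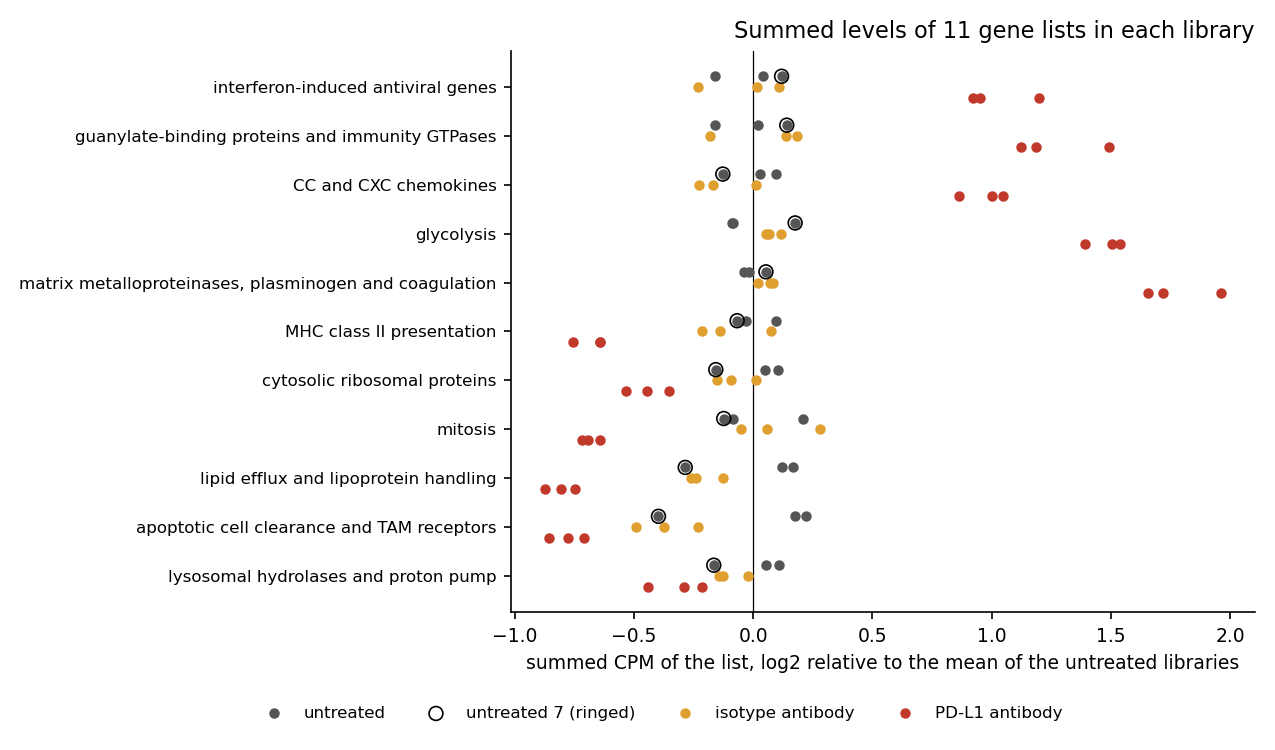
Points are the summed CPM of the members of 11 gene lists in each of the 9 libraries, on a log2 scale relative to the mean of the 3 untreated libraries, with untreated 7 ringed. The PD-L1 antibody libraries lie apart from both other groups in all 11 lists, most narrowly for lysosomal genes, and untreated 7 lies with the isotype antibody libraries for lipid handling and apoptotic cell clearance.

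Scavenger and lectin receptors as a list were divided, 10 of 26 higher and 10 lower. Marco, a scavenger receptor for bacteria, stood at 54.1, 67.6 and 78.2 CPM with the antibody and 1.77, 2.32 and 4.74 CPM without (log2 fold change 4.16, SE 0.27, limma adjusted p = 9.36e-07), while Cd5l, a secreted member of the same superfamily, fell by 2.54. Fc, complement and TREM receptors rose in 17 of 32 cases and fell in 8. Siglece, an inhibitory receptor for sialic acid, stood at 105, 117 and 135 CPM with the antibody and 4.01, 5.92 and 5.9 CPM without (log2 fold change 4.27, SE 0.21, limma adjusted p = 9.69e-08). Pilra, another inhibitory receptor, rose by 2.69, and Fcgrt, the neonatal Fc receptor that recycles IgG, stood at 45.1, 47.6 and 47.5 and 89.4, 225 and 209 CPM (log2 fold change -1.77, SE 0.29, limma adjusted p = 0.000594; -2.19 without untreated 7). Effectors of alternative activation were divided as well, 7 of 18 higher and 6 lower, with Il4ra higher by 1.75 and Tgm2 by 1.4.

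Genes of matrix breakdown and coagulation rose in 16 of 28 cases and fell in 6 (median 0.55). Thbs1 stood at 4813, 4441 and 6284 CPM with the antibody and 467, 431 and 485 CPM without (log2 fold change 3.47, SE 0.14, limma adjusted p = 2.47e-08). Mmp14, a membrane-bound metalloproteinase, stood at 1287, 1236 and 1517 and 213, 213 and 251 CPM (log2 fold change 2.57, SE 0.16, limma adjusted p = 8.72e-07). Plasminogen activation changed on both sides, since Plau, the activator urokinase, fell by 1.95 while its inhibitor Serpinb2 rose. The inhibitor Timp2 fell by 1.94. Leukocyte integrins rose in 8 of 19 cases and fell in 4. Itgal, the α chain of LFA-1, stood at 443, 400.2 and 554 CPM with the antibody and 222, 96.8 and 118 CPM without (log2 fold change 1.75, SE 0.24, limma adjusted p = 0.000192), and Itgb3 and Itgb5, β chains of vitronectin receptors, fell by 1.12 and 0.85. Itgb3 is also an integrin of megakaryocytes, and 7 of 8 erythroid and megakaryocyte markers fell and none rose (median -1.24), with a summed level of 27.9 to 46.6 CPM with the antibody and 69.9 to 104 CPM without. Their part in the fall of Itgb3 was not tested. Of osteoclast genes 5 of 12 rose and 3 fell: Acp5, the tartrate-resistant phosphatase, rose by 1.58 and Dcstamp, needed for cell fusion, fell by 1.94.

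Lineage transcription factors were divided, 8 of 24 higher and 5 lower (8 lower with library totals alone). Cebpa, a factor of myeloid differentiation, stood at 118, 116 and 122 CPM with the antibody and 524, 965 and 768 CPM without (log2 fold change -2.61, SE 0.20, limma adjusted p = 2.71e-06). Bhlhe41 fell by 1.78, while Spic, a factor of iron-recycling macrophages, rose by 1.82 and Ets2 by 2.05. Among receptors and signalling proteins of the colony-stimulating factors 8 of 16 rose (5 with library totals alone) and 3 fell. MAP kinase phosphatases and Sprouty proteins rose in 9 of 21 cases and fell in 5. Dusp6 and Dusp16 rose by 1.72 and 1.63, Dusp7 and Dusp22 fell by 1.20 and 1.22.

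Of mitosis genes 25 of 32 fell and none rose (median -0.70). They were low in all libraries: Kif23, a motor of cytokinesis, stood at 2.21, 1.96 and 2.94 CPM with the antibody and 13.4, 12.2 and 10.8 CPM without (log2 fold change -1.97, SE 0.18, limma adjusted p = 8.84e-06). Cenpa, the centromeric histone, fell by 1.67 and Cdc20, an activator of anaphase, by 1.48. With only genes averaging 5 CPM tested, which left out members and also recomputed the scaling, 15 mitosis genes fell. Of 32 DNA replication genes 8 fell and 1 rose (none without PD-L1 antibody 2), and falls numbered 18, 16 and 14 with library totals, upper-quartile factors and a filter at 5 CPM. Rrm2, a subunit of ribonucleotide reductase, fell by 0.99. D cyclins went in both directions: Ccnd2 stood at 166, 204 and 197 CPM with the antibody and 38, 13.2 and 12.7 CPM without (log2 fold change 3.27, SE 0.32, limma adjusted p = 1.58e-05), and Ccnd1 fell by 0.83. Untreated 7 lay well above untreated 8 and 9, and without it the rise was 3.76.

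Of p53 pathway genes 9 of 23 fell and 4 rose (1 with library totals alone). Bbc3, the death inducer PUMA, stood at 13, 14.2 and 21 CPM with the antibody and 51, 70.7 and 69.4 CPM without (log2 fold change -1.93, SE 0.19, limma adjusted p = 1.95e-05), Gadd45a fell by 1.71 and Sesn1 by 1.96. Regulators of death rose in 19 of 33 cases and fell in 5 (3 without PD-L1 antibody 1 or 2 or untreated 8 or 9). Cflar, which blocks caspase 8, stood at 349, 399.9 and 385 CPM with the antibody and 136, 109 and 121 CPM without (log2 fold change 1.63, SE 0.11, limma adjusted p = 1.57e-06), and Bcl2a1a, a survival protein with near-identical copies, rose by 1.77. Fas, a death receptor, rose by 2.05, and the death inducers Pmaip1 and Bmf fell by 0.93 and 0.81. The list thus held rises on both sides of the death decision.

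Of 79 cytosolic ribosomal protein genes 68 fell and none rose (median -0.43), and their share of reads was 0.826 to 0.933% with the antibody and 1.22 to 1.4% without. Rps16 stood at 38.1, 34.8 and 41.2 CPM with the antibody and 65.2, 75.5 and 71.3 CPM without (log2 fold change -0.88, SE 0.11, limma adjusted p = 0.000106). These falls were small and even, with no overlap for the genes named by the rule, Rps16, Rps21, Rps28, Rps15, Rpl36 and Rpl37a. Ribosomal protein transcripts are short, and short transcripts ran lower in general. The lowest quartile of exonic length, 45 to 1735 bases, had a median of -0.09, and the ribosomal list -0.43. That quartile was not matched to the list in length, and the part of length in these falls was not tested. Genes of the ATF4 stress response and amino acid synthesis rose in 15 of 24 cases and fell in none (1 without untreated 7): Mthfd2, a folate enzyme of mitochondria, stood at 107, 108 and 90.4 CPM with the antibody and 51.5, 31.3 and 33.7 CPM without (log2 fold change 1.4, SE 0.17, limma adjusted p = 9.68e-05), and Asns, asparagine synthetase, rose by 1.19. Heat shock and ER chaperones rose in 20 of 30 cases and fell in 1, Herpud1 (2 without untreated 7 or 8). Hsph1 and Hyou1 rose by 1.26 and 0.82. Chromatin-modifying enzymes rose in 14 of 36 cases and fell in 5 (6 and 8 with library totals alone, and 9 rises without PD-L1 antibody 2 or 3 or untreated 8 or 9), with the DNA methyltransferase Dnmt3a lower by 1.14 and the histone demethylase Kdm6b higher by 0.89.

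Genes that changed also lay in runs of neighbours, which were picked out after the values were seen and are given as a description. On chromosome 11 (114668543 to 115037690, GRCm38), 11 consecutive genes above the filter on low values fell, among them Gprc5c and 7 members of the Cd300 family of lipid-binding myeloid receptors. Cd300a stood at 141, 126 and 129 CPM with the antibody and 399, 467 and 469.6 CPM without (log2 fold change -1.75, SE 0.09, limma adjusted p = 1.82e-07), and Cd300lb fell by 1.07; Cd300ld3 and Cd300ld4 had nearly the same values in every library and may share reads. On the same chromosome, 10 consecutive genes around Irgm1, Tgtp1 and Ifi47 rose, and 10 consecutive ones around Slfn1 to Slfn5, which are interferon-induced growth regulators. The Ms4a genes of chromosome 19 (7 in a row) and Il1r1, which encodes the signalling receptor of interleukin-1, with its neighbours on chromosome 1 (6 in a row) rose as well. Il1r1 stood at 22.4, 23.1 and 24.6 CPM with the antibody and 1.98, 1.99 and 3.34 CPM without (log2 fold change 2.85, SE 0.20, limma adjusted p = 1.42e-06). Families of close copies can count the same reads more than 1 time, so a run is not a count of independent rises.

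Set beside the isotype antibody, which shares its PD-L1 antibody libraries with this comparison, the effect had much the same size for the leading genes. Against isotype wells the PD-L1 antibody called 4996 genes (36.4%), 2495 (18.2%) higher and 2501 (18.2%) lower, with 598 (4.35%) at least 2-fold higher and 507 (3.69%) at least 2-fold lower. Cd38 was higher by 6.10 on the log2 scale against the isotype antibody and by 5.77 against untreated wells, Saa3 by 7.17 and 6.67, Thbs1 by 3.31 and 3.47, and Slc2a1 by 2.42 and 2.44. Lpl was lower by -1.92 and -1.97. For genes in which untreated 7 lay with the isotype wells, the value against untreated wells was the larger in size: C1qb gave -0.66 and -1.5, Mrc1 -2.0 and -2.93, Fcgrt -1.10 and -1.77, and Gas6 -1.94 and -2.68. Between the isotype antibody and untreated wells none of those 4 genes passed the test (limma adjusted p = 0.362 to 0.449), and all 4 passed without untreated 7 (0.0012 to 0.00343).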

How the data were processed

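RNA of mouse macrophages was sequenced after oligo(dT) selection in paired 150-base reads, per the labels' protocols. The submitters' processing notes name STAR and Partek, with no version; the build is not given in the sources used here. The authors deposited, per the file headers, 1 table per library with the read count over each transcript's whole span and the average coverage of its exons, a signal in reads per exonic base. Deposited coordinates overlapped the gene of the same name in GENCODE M21 (GRCm38) for 21721 of 21926 symbols (99.1%).

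From these, average coverage times exon length over 150 gave exonic read equivalents, which came to 68.03 to 70.88% of the span counts. Of 35131 transcripts the most covered 1 per symbol was kept (22376 symbols). The filter filterByExpr (edgeR 4.0.16) left 13741 genes. Values were scaled per 1000000 of the library total times a TMM factor (0.9192 to 0.9318 with the PD-L1 antibody, 1.009 to 1.063 in the others) and tested as log2(CPM + 1) with limma 3.58.1 (trended variance, all 9 libraries, 1 mean per group) in R 4.3.3. Fold changes are on that scale, which understates those of low genes. No count model was used for the main result since coverage is not a count. The deposited span counts entered only the edgeR and DESeq2 1.42.0 alternatives. On data simulated from these libraries (13527 genes, 200 changed), 38% of 1.5-fold and 85.9% of 2-fold changes were called, and 9 of 13328 unchanged genes. In the real comparison 42.4% of genes were called, a far larger share than was changed in the simulation. The simulated shares therefore do not give the share of real changes found or the rate of false calls in that comparison.

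Besides Cd274, Pdcd1lg2 and Cd80, genes were named by rule. These were the 12 largest rises and falls, without unnamed or pseudogene symbols, that averaged 5 CPM with groups apart. Added to them were the 10 largest gains and losses in CPM, and genes going from under 1 to over 10 CPM or back. Each of 55 functional lists gave up to 6 called members, those with the largest log2 fold changes in each direction. Members and lists were chosen with earlier results of these data known. Ass1, Cd300a, Cd300lb, Cd86, Csf1r, Ifnb1, Il1r1, Ldha, Lyz2, Odc1, Ptgs1, Tlr2, Tlr4, Tnf and the genes listed only as reference genes or checks were named after their values were seen. A few genes that the rule names are not reported here. Groups follow the labels, and 23 alternatives were planned and 1 added. Promoters came from RefSeq (GRCm38.p6). Tables and plots were made in Python 3.11.15 (numpy 2.4.6, pandas 2.3.3, matplotlib 3.10.9).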

Additional observations from a re-analysis of the deposited data

How the results depend on the processing

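Of the 5831 genes called between the PD-L1 antibody and untreated wells, 3821 were called at an adjusted p under 0.01 and 981 by limma's test for over 1.5-fold (583 higher, 398 lower). Falls numbered 1786 in place of 2814 at 0.01. Rises numbered 1940 in place of 3017 with library totals alone, and upper-quartile factors gave 2403 rises and 3433 falls. Falls of at least 2-fold, 522, numbered 865 with log2(CPM + 0.25), 301 with log2(CPM + 4), 800 by DESeq2 and 940 by limma-voom. Leaving out 1 library gave 4524 to 6766 calls, 2361 to 3443 rises, 2163 to 3323 falls, 621 to 756 rises and 490 to 568 falls of at least 2-fold. The 4996 calls against the isotype antibody became 3228 at 0.01, 895 for over 1.5-fold and 3774 to 6030 without 1 library.

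Isotype antibody and untreated wells differed in 1 gene with limma, in 2 with library totals alone, in 2 by edgeR and in 0 by limma-voom, at 0.01 or for over 1.5-fold, with 1748 genes at an unadjusted p under 0.05. Without 1 library the count was 0 to 2295, the highest without untreated 7. Without PD-L1 antibody 2 and untreated 7 together, an alternative chosen after seeing the data, it was 2223, and the PD-L1 antibody called 6170 genes against untreated wells. No named gene past the threshold reversed under any alternative; Polr1a, Paox, Rrp9, Ndufa6, Atg5, C1qa, Cdkn2d, Sqle, Ndufab1 and H2-K1 lost their call most often, and Pdcd1lg2 lost it without those 2 libraries (adjusted p = 0.073). No paired analysis was possible because the labels, which number the libraries in 1 series across the groups, give no pairing. Of genes averaging under 1 CPM 17.6% were called; how far depth limits them was not tested.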
